A study of Mus musculus with 2 samples.

Results

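Histone genes were followed in CT26, a mouse colon carcinoma cell line, by RNA sequencing of 2 cultures. In one culture a lentivirus carried mouse Oct4, encoded by Pou5f1, and human SOX2. In the other the vector was empty, and this culture is called the control here. Both cultures were grown in the same serum-containing medium for 4 days. Each group holds 1 library and was not replicated, and neither the promoter of the vector nor whether the cells were cloned is given in the sources used here. The comparison asks which transcripts differ once the cells carry both factors.

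The histone genes were taken from the deposited gene table by name. They are all the protein-coding genes whose symbol starts with Hist and a digit, or follows the form of the variant histone symbols such as H2afz, H3f3b and H1f0. The rule gave 83 of the 54532 genes listed. Of these, 67 were clustered Hist genes and 16 were variant histone genes. The clustered genes comprised 6 for the linker histone H1, 18 for H2A, 18 for H2B, 12 for H3 and 13 for H4. The variant genes comprised 4 for H1, 9 for H2A, 1 for H2B and 2 for H3. The name rule does not use any measured value.

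Histones package DNA. H2A, H2B, H3 and H4 form the core of the nucleosome, and H1 binds the DNA between nucleosomes. Genes in the histone clusters are mostly replication-dependent: they are transcribed in S phase, and their mRNAs end after a conserved stem-loop instead of in a poly(A) tail. The stem-loop is bound by SLBP, which acts in the processing, translation and decay of these mRNAs. Variant histone genes mostly lie apart from the clusters, are expressed outside S phase as well and give polyadenylated mRNAs. Some contain introns, and others, such as H1f0 and H2afx, are annotated without one. Some clustered genes can also give polyadenylated mRNAs, which is known best in cells that have left the cycle.

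Since the stem-loop is what defines a replication-dependent histone mRNA, 8 of the sequences found are shown first. They are those of the 6 genes at 1 FPKM or more that carry one, of Hist1h3d as the clustered H3 gene with the most reads, and of Hist1h4j for its stem form. They are written 5′ to 3′ in the sense of the transcript from GENCODE M21 transcripts on GRCm38, with the 16-base element (a 6-base-pair stem and a 4-base loop) in capitals:
Hist1h1c, chr13:23739507-23739536, plus strand: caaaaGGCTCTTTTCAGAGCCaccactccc
Hist1h2bg, chr13:23571838-23571867, plus strand: ccaaaGGCTCTTTTCAGAGCCacccatact
Hist1h3d, chr13:23576239-23576268, plus strand: ccaaaGGCTCTTTTCAGAGCCacccccgtt
Hist1h4h, chr13:23531453-23531482, plus strand: ccaaaGGCCCTTTTCAGGGCCgcccacatt
Hist1h4i, chr13:22040957-22040986, minus strand: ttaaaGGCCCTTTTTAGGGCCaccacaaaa
Hist1h4j, chr13:21735432-21735461, plus strand: ctaaaGGTCCTTTTCAGGACCaccacatct
Hist2h4, chr3:96262930-96262959, minus strand: ctaacGGCCCTTTTTAGGGCCaaccacagt
H2afx, chr9:44335235-44335264, plus strand: acaaaGGCCCTTTTAAGGGCCaccacctcc

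The motif searched had stem arms GGNNCT and AGNNCC that pair with each other around a loop NTTN, on the sense strand of annotated transcripts. It was found in 44 of the 67 clustered genes (65.7%), in 2 of the 16 variant genes (12.5%) and in 7 of 21818 other protein-coding genes (0.0321%). The variant genes with it were H2afx, for the H2A.X of DNA damage signalling, and H2bfm, which had no read. In the clustered genes it began 21 to 58 bases after the stop codon, with a median of 31 bases. The commonest form, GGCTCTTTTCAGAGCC, was in 26 clustered genes. The 11 clustered H4 genes with an element carried GGCC or GGTC as the first 4 bases of the stem, and the 33 other clustered genes carried GGCT, as the lines above show for Hist1h4h and Hist1h4j against Hist1h1c. Of the 23 clustered genes without a match, 17 had no annotated transcript reaching 74 bases past the stop codon, the distance needed to hold an element as far out as the farthest one found. The other 6 included the most read H2B genes, Hist1h2bc and Hist2h2be. No match in an annotated transcript says only that these letters were not in it.

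The libraries held 31521115 gene-assigned reads in the Oct4 and SOX2 culture and 32262408 in the control, as recovered from the deposited FPKM values. FPKM is the number of fragments per kilobase of gene at a common depth, and 3 reads on 1 kb were worth 0.0942 FPKM in the Oct4 and SOX2 library and 0.0940 FPKM in the control. Pou5f1 was at 173 FPKM with 12406 reads in the Oct4 and SOX2 library and had 0 reads in the control, at least 4143-fold higher against a floor of 3 reads, with a lower 95% limit of 3369 from counting. The introduced copy is of mouse sequence, so these reads do not tell it from the endogenous gene. The mouse gene Sox2 stood at 23.3 FPKM in the Oct4 and SOX2 library, against 14.1 FPKM in the control, 1.64-fold higher (1.51 to 1.79). The introduced SOX2 is human, and whether some of its reads were assigned to the mouse gene was not tested. Of 12 colon epithelial markers 3 reached 1 FPKM in a library, and all 12 summed to 41.7 FPKM in the Oct4 and SOX2 library and 32.8 FPKM in the control. Of these 12, 2 had 0 reads in the Oct4 and SOX2 library and 3 had 0 reads in the control. The 6 fibroblast markers, 4 of them above 1 FPKM, summed to 355 FPKM in the Oct4 and SOX2 library and 255 FPKM in the control. The 6 leukocyte markers, 1 of them above 1 FPKM, summed to 4.29 FPKM in the Oct4 and SOX2 library and 5.54 FPKM in the control. None of 4 endothelial markers (sums of 0.580 FPKM in the Oct4 and SOX2 library and 0.120 FPKM in the control) and none of 6 male germ line markers (0.353 FPKM in the Oct4 and SOX2 library and 0.572 FPKM in the control) reached 1 FPKM. The part of these levels in the histone values was not tested. Less RNA per cell and fewer cells that express a gene cannot be told apart in these bulk libraries.

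The histone genes fell into a few variants with many reads and a large set of clustered genes with few. Of the 83, 18 reached 1 FPKM in at least 1 library, and these are called measured below. They were 10 of the 67 clustered and 8 of the 16 variant genes. A further 24 genes had no read in either library, 17 clustered and 7 variant. Among them were genes known from testis, such as Hist1h1t, Hist1h2ba and Hist1h2aa, the oocyte linker histone gene H1foo and the spermatid linker histone gene H1fnt, all chosen after their values were seen. In 11 of the 17 clustered genes without a read, at least 50% of the 50-base windows of the transcripts occur in another gene. The median over the 17 was 88.7%. How reads with several matches were counted is not given, so 0 reads does not show that such a gene was silent. The summed level of the 67 clustered genes was 43.3 FPKM in the Oct4 and SOX2 library and 48.0 FPKM in the control. The 16 variant genes together were at 578 FPKM in the Oct4 and SOX2 library and 510 FPKM in the control. How poly(A) RNA was selected, if it was, is not given in the sources used here, and mRNAs without a poly(A) tail would be under-represented by such a step. The levels of clustered and variant genes therefore say what these libraries held and not how much of each mRNA the cells had.

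Differences across genes were measured on a log2 scale as the FPKM + 1 of the Oct4 and SOX2 library over that of the control, and the added 1 understates the differences of low genes. By a rule of at least 2-fold on that scale, 0 of the 18 measured histone genes were higher and 1 was lower, Hist1h1c. Over all 12401 measured genes 2.42% were higher and 1.85% lower, 4.27% in all, and over the 10276 protein-coding ones 1.39% and 1.07%. The measured clustered genes had a median log2 ratio of 0.12, between -1.12 and 0.93. The measured variant genes had a median of 0.28, between -0.16 and 0.62. All measured genes had a median of -0.01. Since 3 of the 10 measured clustered genes, Hist1h2bg, Hist1h3g and Hist1h4a, passed only through the Oct4 and SOX2 library and none passed only through the control, the clustered median describes the genes that passed and is no evidence of a direction. Without replicates no test across samples was possible. Folds below are plain FPKM ratios with an exact 95% interval (Clopper-Pearson) from the recovered reads, which covers counting error only.

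**Figure D1:**
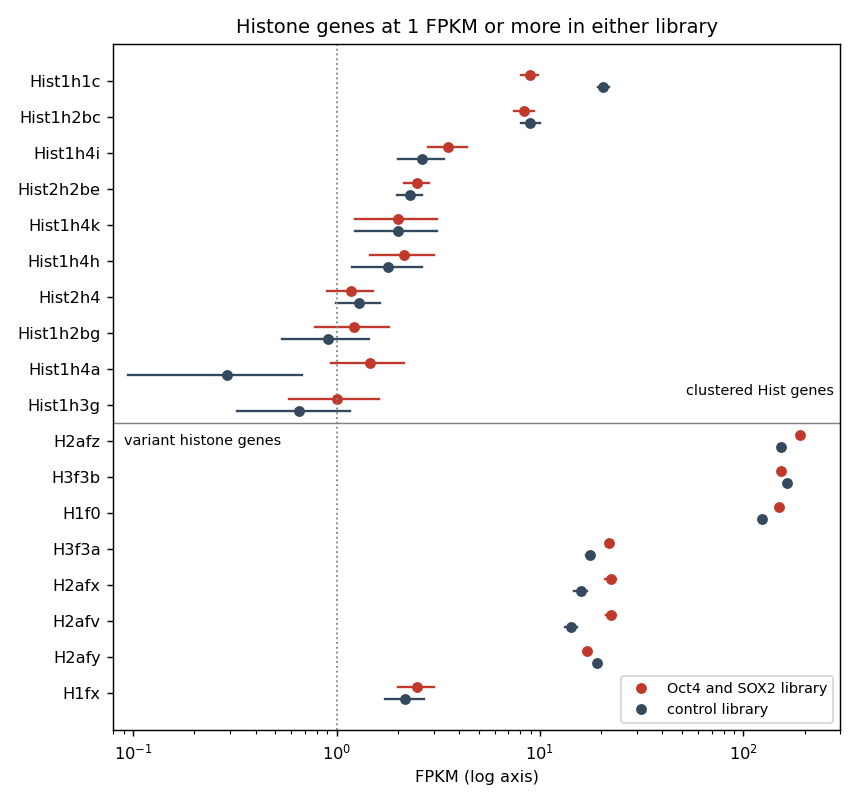
Level of the 18 measured histone genes in FPKM (log axis), the Oct4 and SOX2 library above the control for each gene. Points are the single library of each group, bars are 95% counting intervals from the recovered reads, and the dotted line marks 1 FPKM. Hist1h1c is the clustered gene whose points lie far apart at the top, at 8.89 FPKM in the Oct4 and SOX2 library and 20.5 FPKM in the control, and the variants H2afz, H3f3b and H1f0 stand above 100 FPKM.

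The linker histone genes of the cluster differed in direction. Hist1h1c, for the linker histone H1.2, had 442 reads at 8.89 FPKM in the Oct4 and SOX2 library and 1021 reads at 20.5 FPKM in the control. It was 2.31-fold lower with Oct4 and SOX2 (2.06 to 2.58) and was the most read clustered gene of both libraries. Hist1h1c (ENSMUSG00000036181) lies on chromosome 13 from 23738808 to 23740367 in GRCm38. Hist1h1d, for H1.3, had 14 reads in the Oct4 and SOX2 library and 35 in the control, 2.50-fold lower (1.31 to 5.02), at under 0.15 FPKM in both. Hist1h1e, for H1.4, had 35 reads in the Oct4 and SOX2 library and 18 in the control, 1.95-fold higher with Oct4 and SOX2 (1.07 to 3.65). Its exons overlap those of Hist1h2be on the same strand, so reads there could belong to either gene. The 6 clustered H1 genes together had 499 reads in the Oct4 and SOX2 library and 1079 in the control, a ratio of 0.46 (0.42 to 0.52). Without Hist1h1c they had 57 reads in the Oct4 and SOX2 library and 58 in the control, a ratio of 0.98 (0.67 to 1.44).

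The variant linker histones lay the other way from Hist1h1c. H1f0, for H1.0, which is known to accumulate in cells that divide little or are differentiated, had 9771 reads at 149 FPKM in the Oct4 and SOX2 library and 8123 reads at 124 FPKM in the control. It was 1.21-fold higher (1.17 to 1.24), and its reads outnumbered those of all 67 clustered genes in both libraries. H1fx, for H1X, had 96 reads at 2.48 FPKM in the Oct4 and SOX2 library and 84 reads at 2.16 FPKM in the control, a ratio of 1.14 whose interval (0.845 to 1.55) spans 1.

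Clustered H2B genes held the most clustered reads in the Oct4 and SOX2 library and came after H1 in the control. Hist1h2bc (chromosome 13, 23684199 to 23692908) had 309 reads at 8.39 FPKM in the Oct4 and SOX2 library and 331 reads at 8.97 FPKM in the control, a ratio of 0.935 (0.798 to 1.10). Hist2h2be, on chromosome 3 from 96221119 to 96223738, had 207 reads at 2.48 FPKM in the Oct4 and SOX2 library and 191 reads at 2.28 FPKM in the control, a ratio of 1.09 (0.888 to 1.33). The 2 libraries did not differ beyond counting error at these most read H2B genes. Hist1h2bg had 24 reads at 1.22 FPKM in the Oct4 and SOX2 library and 18 reads at 0.913 FPKM in the control, a ratio of 1.34 (0.695 to 2.61).

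Of 15 H2B genes under 1 FPKM, 9 had reads, 8 of them with more reads in the Oct4 and SOX2 library and 1, Hist1h2bl, with fewer (0 reads in the Oct4 and SOX2 library and 2 in the control, named after its values were seen). Hist1h2be had 99 reads in the Oct4 and SOX2 library and 41 in the control, 2.42-fold higher (1.66 to 3.57), with the overlap with Hist1h1e named above. Hist1h2bp had 17 reads in the Oct4 and SOX2 library and 4 in the control, 4.26-fold higher (1.39 to 17.4). Hist1h2bh had 20 reads in the Oct4 and SOX2 library and 10 in the control (ratio 2.0, 0.895 to 4.79). Hist1h2bq had 17 reads in the Oct4 and SOX2 library and 12 in the control (ratio 1.42, 0.639 to 3.26), so neither differed beyond counting error. Summed over the 18 clustered H2B genes there were 705 reads in the Oct4 and SOX2 library and 613 in the control, a ratio of 1.15 (1.03 to 1.29). Without Hist1h2be, whose reads could belong to Hist1h1e, they had 606 reads in the Oct4 and SOX2 library and 572 in the control, a ratio of 1.06 with an interval that spans 1 (0.945 to 1.19).

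No clustered H2A gene reached 1 FPKM. The 18 genes together had 53 reads in the Oct4 and SOX2 library and 66 in the control, a ratio of 0.80 (0.55 to 1.17). All 18 overlap an annotated gene on the other strand. Neither the strandedness of the reads nor the counting of reads that fall in overlapping genes is given in the sources used here, so these low values are uncertain. Hist1h2ac had 21 reads in the Oct4 and SOX2 library and 18 in the control, a ratio of 1.17 (0.593 to 2.33). Hist3h2a, on chromosome 11, had 12 reads in the Oct4 and SOX2 library and 24 in the control, a ratio of 0.501 (0.228 to 1.04). Hist1h2ad had 1 read in the Oct4 and SOX2 library and 13 in the control, 13-fold lower with an interval from 1.95 to 551. Hist1h2an, chosen after its values were seen, had 6 reads in the Oct4 and SOX2 library and 0 in the control, at least 2.0-fold higher against a floor of 3 reads, with a lower limit of 1.18 from counting.

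Variant H2A genes were read far more deeply. H2afz, for H2A.Z.1, which is found around promoters, had 10695 reads at 189 FPKM in the Oct4 and SOX2 library and 8656 reads at 153 FPKM in the control, 1.24-fold higher (1.20 to 1.27). Its paralogue H2afv, for H2A.Z.2, had 1163 reads at 22.4 FPKM in the Oct4 and SOX2 library and 741 reads at 14.2 FPKM in the control. That is 1.57-fold higher (1.43 to 1.73) and a log2 ratio of 0.62, the highest of the measured variants. The interval of H2afv lies wholly above that of H2afz, so at the level of counting error the paralogues differed by unlike amounts.

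H2afx had 981 reads at 22.2 FPKM in the Oct4 and SOX2 library and 700 reads at 15.8 FPKM in the control, 1.4-fold higher (1.27 to 1.55). It is the measured variant gene with a stem-loop, and its annotated transcript runs 822 bases beyond the element to an end with a poly(A) signal. H2afy, for macroH2A1, a large H2A variant of silent chromatin, had 3695 reads at 17 FPKM in the Oct4 and SOX2 library and 4157 reads at 19.1 FPKM in the control, 1.12-fold lower (1.07 to 1.17). H2afy2, for macroH2A2, had 11 reads in the Oct4 and SOX2 library and 7 in the control, under 0.16 FPKM in both. The 9 variant H2A genes summed to 16545 reads in the Oct4 and SOX2 library and 14261 in the control, a ratio of 1.16 (1.14 to 1.19).

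**Figure D2:**
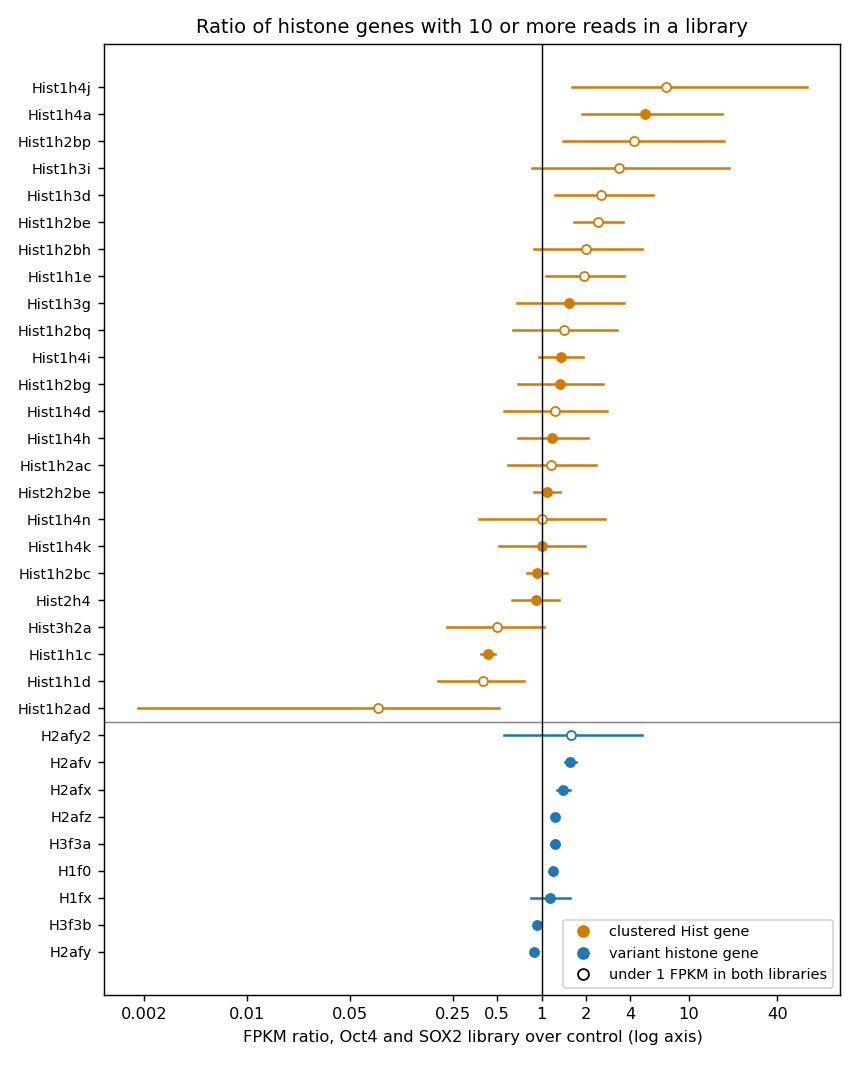
FPKM ratio (log axis), Oct4 and SOX2 library over control, of the 33 histone genes with 10 or more reads in a library, 24 clustered and 9 variant. Bars are 95% counting intervals and open points are genes under 1 FPKM in both libraries. Bars shorten with depth: they are wide for Hist1h4j and Hist1h2ad and hidden by the points for H2afz and H3f3b.

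Clustered H3 and H4 genes had more reads in the Oct4 and SOX2 library, at low depth. The 12 H3 genes had 96 reads there and 47 in the control, a ratio of 2.05 (1.43 to 2.97), with more reads in 8 genes, fewer in 1 and equal numbers in 1. Hist1h3d had 28 reads in the Oct4 and SOX2 library and 11 in the control, 2.55-fold higher (1.23 to 5.68). Hist1h3g, the measured H3 gene, had 17 reads at 1.01 FPKM in the Oct4 and SOX2 library and 11 reads at 0.650 FPKM in the control, a ratio of 1.55 (0.684 to 3.66). Hist1h3i had 10 reads in the Oct4 and SOX2 library and 3 in the control (ratio 3.34, 0.860 to 18.9). Hist1h3c, chosen after its values were seen, had 9 reads in the Oct4 and SOX2 library and 1 in the control, a ratio of 9.02 (1.25 to 395).

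The 13 H4 genes had 271 reads in the Oct4 and SOX2 library and 214 in the control, a ratio of 1.27 (1.06 to 1.52), with more reads in 7, fewer in 2 and equal numbers in 3. The interval spans 1 without Hist1h4a (ratio 1.18, 0.977 to 1.42) or without Hist1h4i (ratio 1.24, 0.995 to 1.54). Hist1h4i (chromosome 13, 22040636 to 22041362) was the most read, with 82 reads at 3.54 FPKM in the Oct4 and SOX2 library and 61 reads at 2.63 FPKM in the control (ratio 1.35, 0.955 to 1.91). Hist1h4h had 32 reads at 2.14 FPKM in the Oct4 and SOX2 library and 27 reads at 1.80 FPKM in the control (ratio 1.19, 0.689 to 2.06). Hist1h4k had 20 reads in each library at 2.01 FPKM. Hist2h4 had 61 reads at 1.17 FPKM in the Oct4 and SOX2 library and 67 reads at 1.29 FPKM in the control (ratio 0.912, 0.634 to 1.31). None of these 4 genes differed beyond counting error.

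Hist1h4a was the measured clustered gene with the largest ratio upwards. It had 25 reads at 1.46 FPKM in the Oct4 and SOX2 library and 5 reads at 0.291 FPKM in the control, 5.01-fold higher (1.88 to 16.8), but its log2 ratio of FPKM + 1 was 0.93 and it did not pass the 2-fold rule. Hist1h4j had 14 reads in the Oct4 and SOX2 library and 2 in the control, 7.01-fold higher (1.61 to 63.6). Hist1h4d had 16 reads in the Oct4 and SOX2 library and 13 in the control, and Hist1h4n had 10 in each library.

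The replication-independent H3.3 genes encode one protein between them and differed in direction. H3f3b had the most reads of all histone genes, 14595 at 154 FPKM in the Oct4 and SOX2 library and 15632 at 165 FPKM in the control, 1.07-fold lower (1.05 to 1.09). H3f3a had 2441 reads at 21.9 FPKM in the Oct4 and SOX2 library and 1978 reads at 17.7 FPKM in the control, 1.24-fold higher (1.16 to 1.31). Together they held 17036 reads in the Oct4 and SOX2 library and 17610 in the control, a ratio of 0.97 (0.95 to 0.99). H3f3a and H2afz share sequence with other genes: 27.1% and 35.4% of their 50-base windows occur, on either strand, in another annotated gene. Reads there may be split or lost. For H3f3a this share covers 193 other genes, and annotated genes that overlap it on the other strand can enter it.

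**Figure D3:**
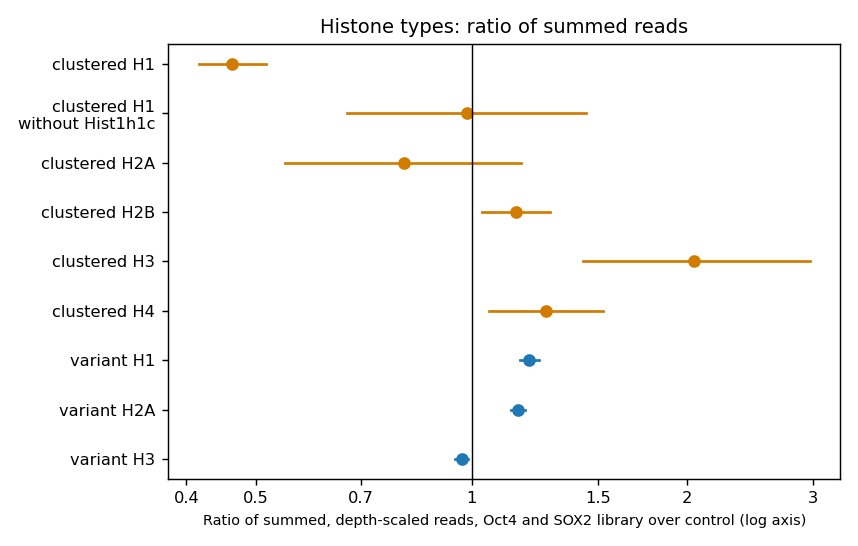
Ratio of summed reads scaled to depth (log axis), Oct4 and SOX2 library over control, for each histone type, with 95% counting intervals. Clustered H1 stands at 0.46 with Hist1h1c and at 0.98 without it, clustered H3 is highest at 2.05, and the variant sums lie between 0.97 and 1.20.

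The direction of the clustered class depended on 1 gene. All 67 genes together had 1624 reads in the Oct4 and SOX2 library and 2019 in the control, a ratio of 0.81 (0.75 to 0.86). Without Hist1h1c there were 1182 reads in the Oct4 and SOX2 library and 998 in the control, a ratio of 1.19 (1.09 to 1.29). The variant class had 43448 reads in the Oct4 and SOX2 library and 40078 in the control, a ratio of 1.09 (1.07 to 1.10), or 1.18 (1.16 to 1.20) without H3f3b. The interval lay wholly above 1 in 5 of the 8 measured variant genes and wholly below 1 in 2, against 34.3% and 37.6% of the measured protein-coding genes. Whether an interval leaves out 1 depends on the number of reads. Those shares are not of genes of like depth, so the variant counts are no result about the class. Of the 50 clustered genes with any read, 32 had more reads in the Oct4 and SOX2 library, 12 had fewer and 6 had equal numbers. That is 64.0% with more reads, against 46.4% of the 15698 protein-coding genes with a read, of which 51.7% had fewer.

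The genes under 1 FPKM were counted against protein-coding genes that were also under 1 FPKM and had at most 140 reads over both libraries. That limit is the read number of Hist1h2be, and depth was not matched within it. These 5046 genes include the clustered ones. The 40 clustered genes under 1 FPKM with reads had 405 reads in the Oct4 and SOX2 library and 267 in the control, a ratio of 1.52 (1.3 to 1.78). Of the 40, 26 had fewer than 10 reads in each library. Without Hist1h2be and Hist1h1e, whose exons overlap, they had 271 reads in the Oct4 and SOX2 library and 208 in the control, a ratio of 1.31 (1.09 to 1.57). More reads in the Oct4 and SOX2 library were found for 26 of the 40 (65.0%), against 43.3% of the 5046 protein-coding genes. Fewer were found for 9, against 51.2% of those genes. The interval of the ratio lay wholly above 1 in 7 of the 40, against 9.43% of the 5046 genes, and wholly below 1 in 2, against 11.5%. Since that depends on the number of reads, which was not matched, the interval counts are no result about the clustered genes. Many clustered genes share sequence, so these 40 are not independent of each other: in 34 of the 67 at least 50% of the 50-base windows occur in another gene, with a median of 54.1% over the class. For the variant class the median was 7.51%. How reads with several matches were counted is not given in the sources used here.

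The clustered genes were also summed by position along the genome. The 23 genes at 21715763 to 22043676 on chromosome 13 had 191 reads in the Oct4 and SOX2 library and 123 in the control, a ratio of 1.56 (1.23 to 1.97). The 31 genes farther along chromosome 13, at 23531050 to 23934851, had 1140 reads in the Oct4 and SOX2 library and 1600 in the control, a ratio of 0.71 (0.66 to 0.77). This group holds Hist1h1c, and without that gene it had 698 reads in the Oct4 and SOX2 library and 579 in the control, a ratio of 1.21 (1.08 to 1.35). Without Hist1h2be as well the ratio was 1.12 (0.991 to 1.26), and without Hist1h2bc in its place it was 1.57 (1.34 to 1.85). The ratio of this group thus turned on single genes, and whether it differs from the first group was not tested. The 10 genes on chromosome 3 had 277 reads in the Oct4 and SOX2 library and 268 in the control, a ratio of 1.04 (0.87 to 1.23). The 2 genes on chromosome 11 had 12 reads in the Oct4 and SOX2 library and 24 in the control, all of Hist3h2a, and Hist4h4 on chromosome 6 had 4 reads in each library.

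The levels of the clustered genes were set beside their annotated 3′ ends. A poly(A) signal, AATAAA or ATTAAA on the sense strand, was present in the last 50 bases of an annotated transcript in 17 of the 67 clustered genes, of which 6 were measured. Among the other 50 clustered genes 4 were measured. The median level was 0.568 FPKM in the Oct4 and SOX2 library and 0.223 FPKM in the control for the 17 genes, and for the 50 it was 0.10 FPKM in the Oct4 and SOX2 library and 0.079 FPKM in the control. Transcripts annotated far past the stem-loop were found in genes with many reads and in genes with few, by 840 bases in Hist1h1c and 1257 in Hist2h4, and by 4884 in Hist1h1d, 2445 in Hist4h4 and 2010 in Hist1h2ac, which were all under 0.3 FPKM. This is a description of the annotation, and which ends the reads came from cannot be told from gene counts.

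The differences were also set out by the form of the end. The 31 clustered genes with a stem-loop and no poly(A) signal had 230 reads in the Oct4 and SOX2 library and 178 in the control, a ratio of 1.29 (1.06 to 1.58), with more reads in 18, fewer in 4 and equal numbers in 3. The interval spans 1 without Hist1h3d (0.982 to 1.5) or without Hist1h1e (0.985 to 1.51). The 13 with both features had 771 reads in the Oct4 and SOX2 library and 1256 in the control, a ratio of 0.615 (0.561 to 0.673). Without Hist1h1c they had 329 reads in the Oct4 and SOX2 library and 235 in the control, a ratio of 1.4 (1.18 to 1.67), and without Hist1h2be as well the ratio was 1.19 (0.977 to 1.45). The 23 genes without a stem-loop had 623 reads in the Oct4 and SOX2 library and 585 in the control, a ratio of 1.07 (0.951 to 1.20). Of these the 19 with neither feature had 374 reads in the Oct4 and SOX2 library and 377 in the control, a ratio of 0.994 (0.859 to 1.15). Hist1h2bc alone held 309 of those reads in the Oct4 and SOX2 library and 331 in the control, so both ratios rest largely on it. The 17 genes annotated to less than 74 bases past the stop codon, all among the 19, gave a ratio of 1.37 (0.870 to 2.19). They had 48 reads in the Oct4 and SOX2 library and 35 in the control.

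**Figure D4:**
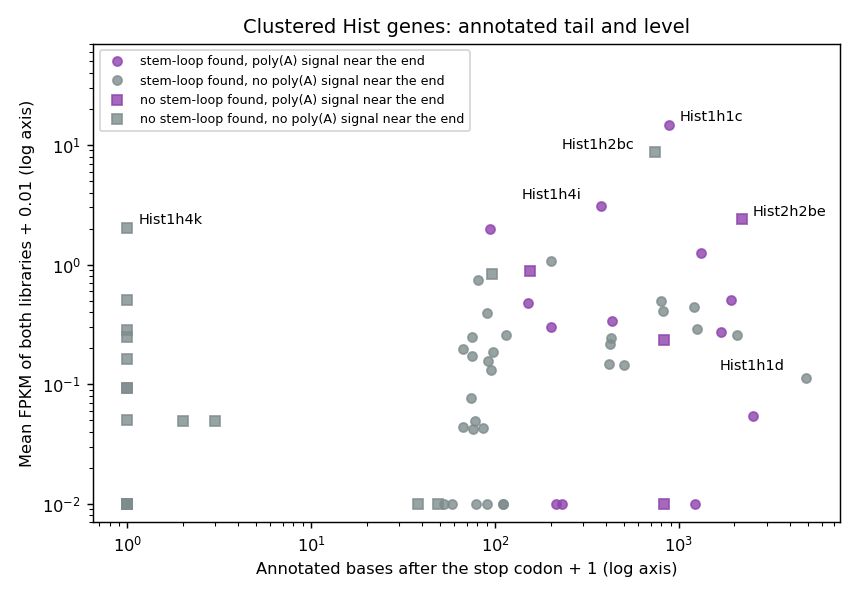
Mean FPKM of both libraries + 0.01 (log axis) against the longest annotated stretch after the stop codon in bases + 1 (log axis) for the 67 clustered genes. Circles have a stem-loop and squares none, purple marks a poly(A) signal near the end and grey none. Points at 0.01 have no read in either library, and genes annotated without bases after the stop codon stand at the left.

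Promoters were searched because H2B genes are classically driven by an octamer, ATGCAAAT, which the POU factor Oct1 binds and which Oct4 is also known to bind. RefSeq promoters of GRCm38.p6, from 250 bases before to 50 bases after the start, were at hand for 75 of the histone genes. In 55 of their 76 promoters, bases 20 to 50 after the start were found in an annotated transcript of the gene. In the others they were not, so the start used may differ from that annotation. The octamer, on either strand, was in 14 of 61 clustered promoters (23.0%), 7 of 17 for H2A and 7 of 16 for H2B, and in none for clustered H1, H3 or H4. It was in 1 of 14 variant promoters, that of H3f3b, and in 532 of all 27025 genes (1.97%). The 14 clustered promoters are not 14 separate sites, since neighbouring H2A and H2B genes can share an octamer that counts for both. Such pairs were Hist1h2ae with Hist1h2bg, Hist1h2ah with Hist1h2bk, and Hist1h2aa with Hist1h2ba. CCAAT was in 52 of the 61 clustered promoters (85.2%), against 41.1% of all genes, and TATAAA in 35 (57.4%), against 15.7%, each searched on both strands. Neither is contained in the octamer. The octamer is shown in capitals in the sense of the gene, as ATTTGCAT where it lies on the other strand:
Hist1h2bg, chr13:23571333-23571356, plus strand: agtcccttATTTGCATagaacctc
Hist1h2be, chr13:23586022-23586045, minus strand: aagacttaATTTGCATaagactgc
H3f3b, chr11:116024563-116024586, minus strand: gttggtgtATGCAAATcagggttc

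These octamers lie 59, 67 and 74 bases before a RefSeq start of Hist1h2bg, Hist1h2be and H3f3b. For Hist1h2be and H3f3b that start lies inside the gene span of the deposited table, and the promoter at the other RefSeq start of Hist1h2be had no octamer. Hist1h2bg and Hist1h2be, with the octamer, had ratios of 1.34 and 2.42, and H3f3b, also with it, had a ratio of 0.935. The 14 clustered genes with an octamer had 171 reads in the Oct4 and SOX2 library and 112 in the control, a ratio of 1.53 (1.20 to 1.96). Without Hist1h2be they had 72 reads in the Oct4 and SOX2 library and 71 in the control, a ratio of 1.02 (0.722 to 1.43). The 7 H2B genes among them had 127 reads in the Oct4 and SOX2 library and 61 in the control, a ratio of 2.09 (1.53 to 2.88), and without Hist1h2be 28 reads in the Oct4 and SOX2 library and 20 in the control, a ratio of 1.4 (0.762 to 2.63). Hist1h2bc and Hist2h2be, the most read H2B genes, had no promoter in the table used and are in neither sum. The 47 clustered genes whose promoter held no octamer had 865 reads in the Oct4 and SOX2 library and 1313 in the control, a ratio of 0.66 (0.605 to 0.720). Leaving out Hist1h1c, they had 423 reads in the Oct4 and SOX2 library and 292 in the control, a ratio of 1.45 (1.25 to 1.69). Which set had the higher ratio thus turned on Hist1h1c and Hist1h2be. A match to these letters is no evidence of binding.

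Genes that make and place histones, and S phase genes beside them, were read from 4 lists. Of all measured genes, 48.3% had a log2 ratio above 0. In the list for transcription and 3′ processing of histone mRNAs, 27 genes were measured, 15 with a log2 ratio above 0 and 12 below, with a median of 0.03. Its most expressed members encode Sm proteins that U7 and spliceosomal particles share. Snrpb was at 166 FPKM in the Oct4 and SOX2 library and 184 FPKM in the control, Snrpg at 55.4 FPKM in the Oct4 and SOX2 library against 51.2 FPKM in the control, and Snrpe at 45.9 FPKM in the Oct4 and SOX2 library against 60.2 FPKM in the control. Slbp, for the stem-loop binding protein, and Npat, for the coactivator of histone gene transcription, were chosen after their values were seen. Slbp was at 12.1 FPKM in the Oct4 and SOX2 library and 8.33 FPKM in the control, 1.46-fold higher (1.37 to 1.55), and Npat at 7.38 FPKM in each.

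Chaperones carry histones to DNA. For deposition behind the replication fork 17 genes were measured, 13 above 0 and 4 below, with a median of 0.08. The FACT subunit gene Ssrp1 was at 118 FPKM in the Oct4 and SOX2 library and 136 FPKM in the control, the histone binding protein gene Rbbp7 at 110.3 FPKM in the Oct4 and SOX2 library against 109 FPKM in the control. The H2A and H2B chaperone gene Nap1l1 was at 89.2 FPKM in the Oct4 and SOX2 library and 99.7 FPKM in the control. For chaperones and remodellers of variant histones 22 genes were measured, 12 above 0 and 10 below, with a median of 0.03. Anp32e, whose product removes H2A.Z from chromatin, was at 70.9 FPKM in the Oct4 and SOX2 library and 54.2 FPKM in the control, 1.31-fold higher (1.27 to 1.35). Ruvbl1, for a remodeller ATPase, was at 56.3 FPKM in the Oct4 and SOX2 library and 60.0 FPKM in the control, and its partner gene Ruvbl2 at 55.7 FPKM in the Oct4 and SOX2 library against 59.8 FPKM in the control.

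The S phase list holds genes of the replication fork and of nucleotide supply, and also cyclin, Cdk2, E2F and DNA methylation genes. Of the 38 genes listed 37 were measured, and all 37 had log2 ratios above 0, from 0.13 to 0.96 with a median of 0.51. Above 0 were 48.3% of all measured genes. Pcna, for the replication clamp, was at 117 FPKM in the Oct4 and SOX2 library and 89.8 FPKM in the control. Rrm2, for a subunit of ribonucleotide reductase, was at 76.1 FPKM in the Oct4 and SOX2 library and 47.6 FPKM in the control. Mcm7, for a subunit of the replicative helicase, was at 50.8 FPKM in the Oct4 and SOX2 library and 38.5 FPKM in the control. In none of the 4 lists did a gene pass the 2-fold rule. With 1 library per group, whether the clustered histone genes differ from the S phase list in their response was not tested.

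**Figure D5:**
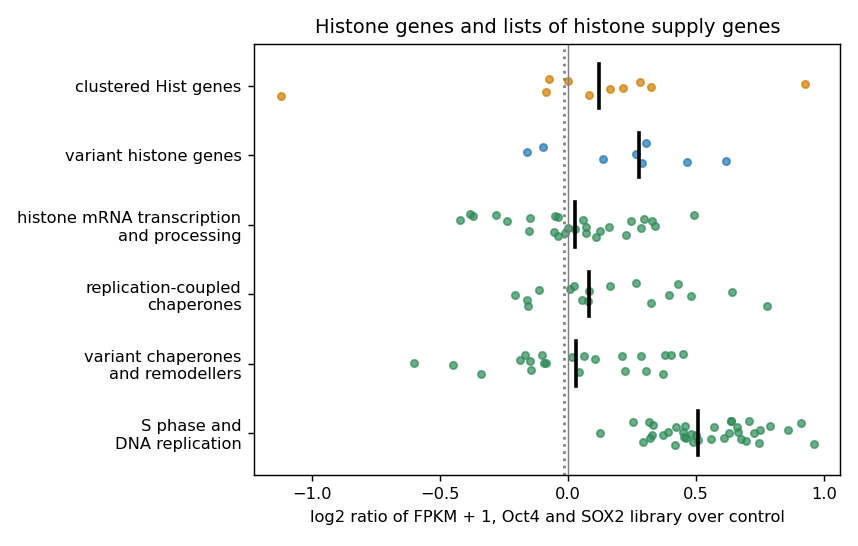
Each measured gene of the histone classes and of 4 lists, of histone supply and S phase genes, placed by its log2 ratio of FPKM + 1 with the Oct4 and SOX2 library over the control. Black bars are medians and the dotted line is the median of all measured genes, -0.01. The S phase genes lie wholly above 0 with a median of 0.51, the variant histones at 0.28 and the clustered genes at 0.12, with Hist1h1c alone at -1.12.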

How the data were processed

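The authors deposited 1 table of FPKM values for both libraries, with gene lengths and positions. CASAVA, HISAT2, featureCounts 1.5.0-p3 and the build GRCm38 are named per the submitters' processing notes, and total RNA made into libraries with a NEBNext Ultra kit per the labels' protocols. The FPKM formula is not given in the sources used here. Read numbers were recovered from FPKM times length, which in 100% of values was a whole number of equal steps (tolerance 0.001 of a read). They sum to 31521115 and 32262408, and the totals implied by the FPKM values are 1.01 and 0.989 times these sums, Oct4 and SOX2 library first.

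Genes with 1 FPKM in a library were measured, and the pseudocount was 1 FPKM. PCR copies are not independent molecules, so intervals and floors hold for counting error alone. All 83 gene identifiers had the same coordinates in GENCODE M21. Named were all measured histone genes, those with 10 or more reads in a library, and the 3 most expressed genes of each list, with Pou5f1 and Sox2. The members and lists were chosen with earlier results of these data known. The steps were tested on simulated data. The tools were scipy 1.17.1, pandas 2.3.3 and numpy 2.4.6 in Python 3.11.15, and matplotlib 3.10.9.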

Additional observations from a re-analysis of the deposited data

How the results depend on the processing

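No paired analysis was possible because each group holds 1 library. Under the alternatives, 82 values kept their direction and stayed within the limit set for a move (for a median, 0.1 on the log2 scale), 12 moved further and 2 reversed. Some of the 82 could not have moved. With a pseudocount of 1 FPKM no gene below the filter can reach 2-fold, so dropping the filter leaves those counts as they were. Centring cannot change a difference of medians. The clustered median log2 ratio of 0.12 reversed to -0.60 with a filter of 5 FPKM, which leaves 2 clustered genes, and the clustered sum ratio of 0.81 reversed to 1.19 without its most read gene, Hist1h1c. That sum was 0.930 with classes set by the stem-loop and 0.960 with H2afx among the clustered genes. The clustered minus variant median of -0.16 was -0.89 with the 5 FPKM filter and -0.013 with stem-loop classes. With a pseudocount of 0.1 FPKM 1 clustered gene was 2-fold higher, against 0. With a pseudocount of 5 FPKM, or without Hist1h1c, 0 were 2-fold lower, against 1. The variant sum ratio of 1.09 was 1.11 with plain read totals, which shift all ratios by 0.03 on the log2 scale, and 1.18 without H3f3b. Over all genes 530 passed the 2-fold rule, 979 with a pseudocount of 0.1, 131 with 5 and 266 with the 5 FPKM filter. The filter of 1 FPKM on the mean of both libraries and the removal of genes with many shared windows were added after seeing the data. With the mean filter the clustered median was 0.04, the clustered minus variant median -0.24 and the 2-fold count over all genes 421. Without the genes with many shared windows the medians did not change and the clustered sum ratio was 0.785. The sums by type and by position without Hist1h1c, that without the overlapping Hist1h2be and Hist1h1e, and the sums with each gene left out in turn, were also chosen after seeing the data. Depth limits the clustered genes most, since 26 of them had reads but fewer than 10 in each library.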

Other observations

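Histone genes outside the protein-coding rule also had reads. H3f3c, annotated as a processed pseudogene of H3.3, had 28 reads in the Oct4 and SOX2 library and 87 in the control, 3.10-fold lower (2.01 to 4.93). H2afy3, a processed pseudogene, had 6 reads in the Oct4 and SOX2 library and 19 in the control, 3.16-fold lower (1.21 to 9.67). H3f3a-ps1 had 69 reads in the Oct4 and SOX2 library and 50 in the control (ratio 1.38, 0.947 to 2.03), and Hist1h2al had 107 reads in the Oct4 and SOX2 library and 84 in the control (ratio 1.28, 0.950 to 1.72), both within counting error. These copies share sequence with protein-coding histone genes, which makes their values uncertain.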
